A study of Mus musculus with 11 samples.

Results

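The Toll-like receptors of the cell surface, their co-receptors and their first adaptors were followed through the kidneys of lupus-prone mice as 10 genes chosen by name, out of 25677 genes listed. They are the receptors Tlr1, Tlr2, Tlr4, Tlr5 and Tlr6, the co-receptors and ligand carriers Cd14, Ly96 and Lbp, and the adaptors Tirap and Myd88. RNA was sequenced from whole kidney of female mice at week 21. Controls were 3 kidneys of strain C57BL/6J, C57B6 in the labels (Ctr). The strain MRL/lpr gave 4 kidneys without treatment (Lpr) and 4 kidneys after intraperitoneal DNase I every day from week 17 (DNase). The MRL/lpr strain has the lpr mutation of Fas and develops an autoimmune nephritis like that of human lupus, and DNase I is an enzyme that cuts DNA outside cells. Both MRL/lpr groups share the Fas mutation and the MRL background, which Ctr lacks, so that strain and disease cannot be told apart in a comparison with Ctr. Whether Lpr mice were injected with vehicle is not given in the sources used here, so that the injections and the enzyme cannot be told apart either. The study asked how DNase I, by acting on the DNA traps that neutrophils release, eases inflammatory damage in the lupus kidney, and it followed Tlr4 and Myd88 among other genes.

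Toll-like receptors recognise conserved products of microbes and some molecules that damaged cells release. At the cell surface Tlr2 pairs with Tlr1 or Tlr6 to bind lipoproteins, Tlr4 binds lipopolysaccharide together with Ly96 (MD-2), and Tlr5 binds flagellin. Lbp carries lipopolysaccharide in blood to Cd14, which hands it to Tlr4 and also assists Tlr2, and Tirap then recruits Myd88 to the receptors, from where the signal runs to NF-kB. In kidney these receptors are known from infiltrating myeloid cells and, at lower levels, from tubular and endothelial cells.

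Between 33469858 and 38460873 counts were assigned to genes per kidney. Fas, which carries the lpr mutation, lay between 5.72 and 8.66 CPM (counts relative to library size, TMM-scaled) over all 11 kidneys, so its level did not separate the strains. The 6 proximal tubule markers summed to between 5125 and 11657 CPM, high levels that mark kidney tissue. Lpr 3 stood apart: relative to the mean of all kidneys, its counts fell with gene length (slope -0.393 log2 units per doubling of length), against slopes from -0.0433 to 0.0775 in the 10 remaining ones. Calls of the 10 genes that depend on Lpr 3 and counts of the gene lists that change without it are given both ways.

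The sequences around the start sites are shown first for Tlr2, Tlr1 and Tlr6, the receptors that rose most against Ctr, and for Myd88, the shared adaptor. They are RefSeq windows on GRCm38.p6, the assembly on which mm10 is built, and run from 250 bases before a start site to 50 bases after it. RefSeq windows were found for 6 of the 10 genes. Capitals mark matches, on either strand, to 3 short motifs: GGGANNNNCC for NF-kB, GAAANNGAAA for interferon regulatory factors and GAGGAAGT for the myeloid factor PU.1.

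Tlr2 (chr3:83841559-83841858, minus strand): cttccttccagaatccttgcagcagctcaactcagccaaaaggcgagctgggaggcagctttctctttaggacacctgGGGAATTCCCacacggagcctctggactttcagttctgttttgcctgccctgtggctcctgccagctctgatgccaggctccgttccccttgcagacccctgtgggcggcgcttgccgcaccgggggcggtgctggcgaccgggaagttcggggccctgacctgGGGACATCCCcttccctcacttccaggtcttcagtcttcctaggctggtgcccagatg
Tlr1 (chr5:64933509-64933808, minus strand): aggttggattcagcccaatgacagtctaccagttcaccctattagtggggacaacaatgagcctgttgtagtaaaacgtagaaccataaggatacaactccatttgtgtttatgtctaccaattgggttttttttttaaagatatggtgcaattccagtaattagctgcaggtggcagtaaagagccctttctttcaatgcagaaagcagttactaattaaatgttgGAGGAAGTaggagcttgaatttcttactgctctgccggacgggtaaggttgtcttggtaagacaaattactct
Tlr6 (chr5:64959117-64959416, minus strand): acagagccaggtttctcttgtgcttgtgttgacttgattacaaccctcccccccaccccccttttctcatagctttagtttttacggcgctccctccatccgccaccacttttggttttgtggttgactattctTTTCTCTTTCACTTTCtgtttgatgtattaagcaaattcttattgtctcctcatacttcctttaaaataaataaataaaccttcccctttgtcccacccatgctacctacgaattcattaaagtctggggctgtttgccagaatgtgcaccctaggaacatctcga
Myd88 (chr9:119339969-119340268, minus strand): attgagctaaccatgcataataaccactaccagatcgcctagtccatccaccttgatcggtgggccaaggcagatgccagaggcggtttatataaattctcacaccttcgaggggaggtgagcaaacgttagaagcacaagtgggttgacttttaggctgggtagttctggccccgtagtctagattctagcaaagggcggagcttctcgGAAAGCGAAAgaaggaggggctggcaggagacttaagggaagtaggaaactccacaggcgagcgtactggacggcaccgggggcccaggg

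The Tlr2 window held 2 matches to the NF-kB motif, at bases 79 to 88 (GGGAATTCCC) and at bases 243 to 252 (GGGACATCCC), counted from the first base printed. Such a match was present in 20.7% of all 32851 windows of this length. The Tlr1 window held 1 match to the PU.1 motif, which 3.2% of all windows held. The Tlr6 window held 2 overlapping matches to the interferon motif and the Myd88 window held 1, where 3.44% of all windows held at least 1. RefSeq lists a further window each for Tlr1 and Tlr6, and neither held a match to any of the 3 motifs. The NF-kB motif also matched once in the Tlr5 window and once in 1 of the 2 Tirap windows, both genes that did not pass the test between Lpr and Ctr. A match shows only that these letters are present.

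Tlr1, Tlr2 and Tlr6, which together form the lipoprotein receptors, rose in Lpr kidneys, while the 3 co-receptors and both adaptors did not pass the test. Cd14, Tlr4 and Myd88 were close to the threshold: DESeq2, the tool of the study, called Cd14 and Tlr4 higher as well, and edgeR with all 3 groups in 1 fit called all 3. Of the 10 genes, all of which were tested, 3 had an adjusted p under 0.05 (edgeR's quasi-likelihood test with Benjamini-Hochberg adjustment over all genes) and were higher in Lpr, and 0 were lower. Over all 16074 genes tested, 7.27% were called higher and 2.92% lower. The same 3 genes also exceeded a log2 fold change of 2, the limit in the study's methods, as 4.65% of all genes did in this direction. Of these 3, the Ctr counts of Tlr6 alone would not have passed the filter on low counts. Tlr6 could thus not have been called lower. The log2 fold changes of the 10 genes lay between 0.14 and 3.72 with a median of 0.73, against a median of 0.03 over all genes. For 6 of the 10 genes no Lpr value was as low as any Ctr value, where 14.4% of all genes showed this.

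**Figure D1:**
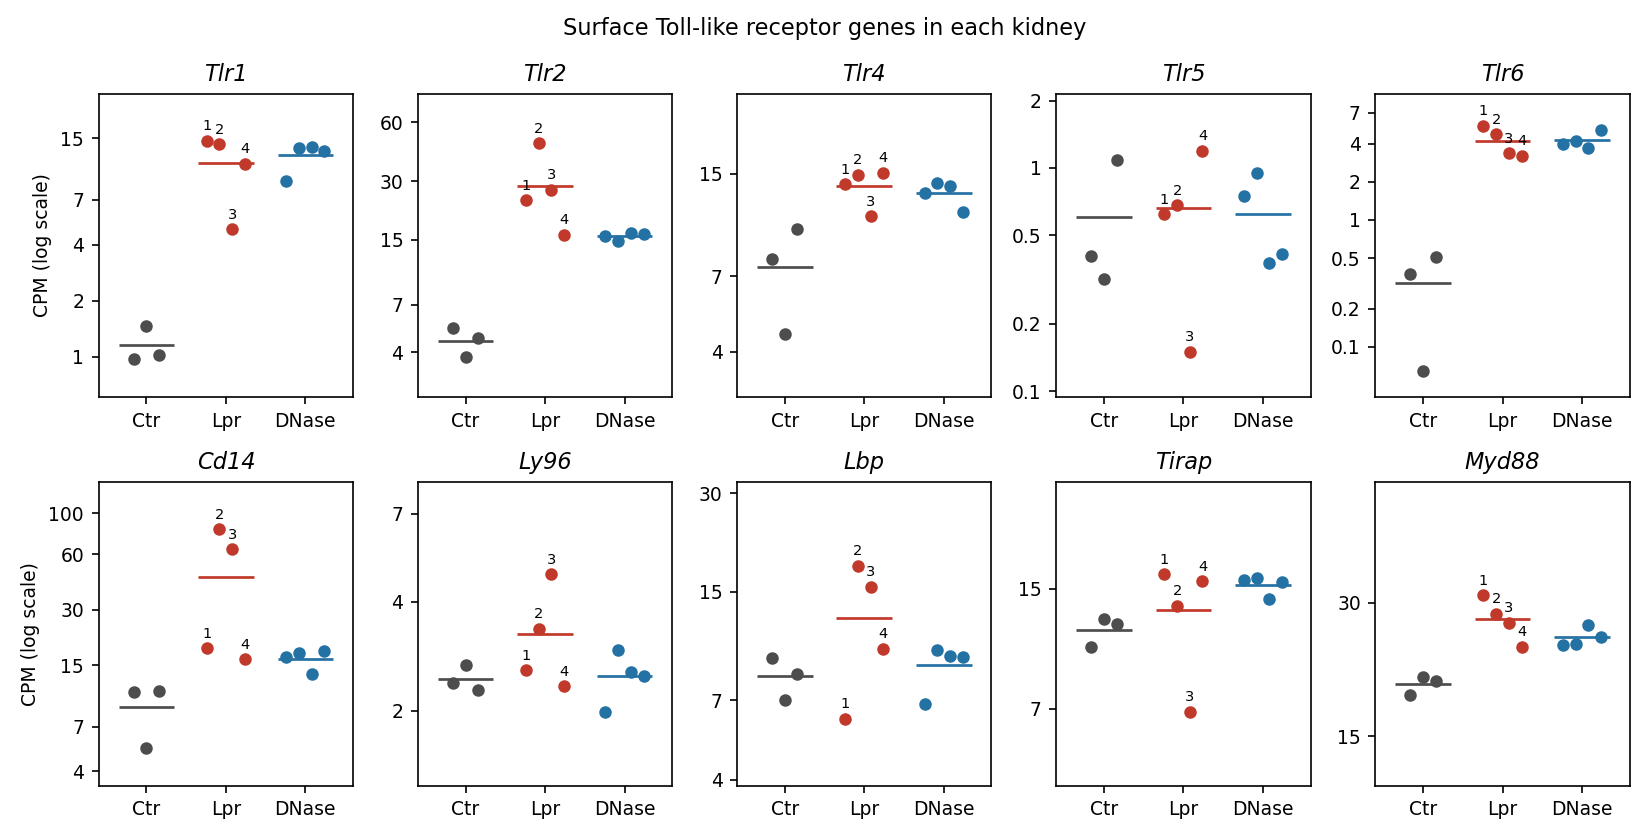
Level of each gene in each kidney, in CPM on a log axis. Each point is 1 kidney, each bar the group mean, and the small numbers name the Lpr kidneys: Lpr 2 and Lpr 3 lie highest for Cd14 and Lbp, with 81.8 and 63.7 CPM of Cd14, while Lpr 3 lies lowest of its group for Tlr1, Tlr4, Tlr5 and Tirap.

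Tlr2 is the partner that both lipoprotein receptors need. It had 5.29, 3.77 and 4.71 CPM in the Ctr kidneys, 24.0, 46.7, 27 and 16.0 CPM in the Lpr kidneys and 15.7, 14.9, 16.2 and 16.0 CPM in the DNase kidneys. All 8 MRL/lpr kidneys were above all 3 Ctr kidneys, and the Lpr kidneys spread over a wider range than the DNase kidneys. Between Lpr and Ctr its log2 fold change was 2.64 (standard error 0.377, adjusted p = 0.00313 from edgeR).

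Tlr1, whose product recognises triacylated lipoproteins together with Tlr2, had 0.966, 1.47 and 1.02 CPM in Ctr. It had 14.5, 13.9, 4.84 and 10.9 CPM in Lpr and 8.88, 13.3, 13.5 and 12.8 CPM in DNase. No MRL/lpr kidney overlapped with Ctr, and the lowest value was that of Lpr 3. The log2 fold change between Lpr and Ctr was 3.27 (standard error 0.435, adjusted p = 0.00223 from edgeR), and 3.52 without Lpr 3.

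Tlr6, the partner of Tlr2 for diacylated lipoproteins, was close to the detection limit in Ctr, with 14, 2 and 17 counts. In CPM these were 0.376, 0.0638 and 0.509, against 5.54, 4.77, 3.37 and 3.21 CPM in Lpr and 3.97, 4.21, 3.69 and 5.14 CPM in DNase. The groups did not overlap, and the log2 fold change between Lpr and Ctr was 3.72 (standard error 0.585, adjusted p = 0.00473 from edgeR). With so few counts in Ctr the size of this fold is less certain than its direction, and the 95% interval ran from 2.38 to 5.05. With 2 counts in Ctr 2, Tlr6 passed the filter on low counts only together with the MRL/lpr kidneys. It could not have been called lower against Ctr.

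Tlr1 and Tlr6 lie next to each other on chromosome 5, at chr5:64924680-64933600 and chr5:64953092-64970942 in GRCm38.p6, with 19491 bases between them. They arose by duplication and have similar coding sequences, and how reads that fit both were counted is not given in the sources used here, so that the division of reads between them is uncertain. The far end of the Tlr6 span overlaps 868 bases of Fam114a1, while both Tlr6 windows belong to starts inside that span, and whether the counting used strand is not given either. The 4 other genes tested within 200 kb of the pair, chosen after their values were seen, were Klf3, Fam114a1, Tmem156 and Klhl5. Their log2 fold changes between Lpr and Ctr were 0.21, 0.40, 1.66 and -0.08, and none had an adjusted p under 0.05 (edgeR), the smallest being 0.0694 for Tmem156. Fam114a1, the gene that overlaps Tlr6, differed by 0.40 (standard error 0.258), against 3.72 for Tlr6. Between DNase and Ctr 2 of the 4 neighbours were higher, Fam114a1 by 0.56 (adjusted p = 0.0337 from edgeR) and Tmem156 by 1.45 (adjusted p = 0.0370 from edgeR).

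Tlr4, the lipopolysaccharide receptor, lies on chromosome 4 (chr4:66827551-66846581). It had 7.97, 4.56 and 9.92 CPM in Ctr, 13.9, 14.9, 10.9 and 15.1 CPM in Lpr, and 13.0, 14.0, 13.7 and 11.3 CPM in DNase. All MRL/lpr kidneys were above all Ctr kidneys, but the lowest, Lpr 3, was close to the highest Ctr kidney. The log2 fold change between Lpr and Ctr was 0.88 (95% interval 0.23 to 1.52) and did not pass the test (adjusted p = 0.0988 from edgeR). It passed in 4 alternatives: without Lpr 3, with 0.97 and an adjusted p of 0.0443, with an offset for gene length, with 1.00 and an adjusted p of 0.0292, with DESeq2 (adjusted p = 0.0344) and with all 3 groups in 1 edgeR fit (adjusted p = 0.0256). At 8411 bases Tlr4 was the longest of the 10 genes by the length that the authors' FPKM values imply.

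Tlr5, the flagellin receptor, was counted between 5 and 42 times per kidney. Its CPM lay between 0.319 and 1.08 in Ctr, between 0.150 and 1.19 in Lpr and between 0.376 and 0.951 in DNase, and the 3 groups overlapped. The interval of its log2 fold change between Lpr and Ctr ran from -1.41 to 1.69, so that only large differences could have been seen at this depth.

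Cd14, the co-receptor that delivers ligand to Tlr4 and Tlr2, had the largest SD relative to its mean of the 10 genes in Lpr. It had 10.7, 5.36 and 10.8 CPM in Ctr, and 18.6, 81.8, 63.7 and 16.2 CPM in Lpr. The DNase kidneys had 16.7, 17.4, 13.4 and 17.8 CPM. Lpr 2 and Lpr 3 were thus far above the other Lpr kidneys, which lay in or next to the range of the DNase kidneys, and every MRL/lpr kidney was above Ctr. The log2 fold change between Lpr and Ctr was 2.33 (standard error 0.630) with an adjusted p of 0.0513 from edgeR. It was 1.86 without Lpr 2 (adjusted p = 0.115), 2.12 without Lpr 3 (adjusted p = 0.0642), 2.59 without Lpr 1 (adjusted p = 0.0376) and 2.61 without Lpr 4 (adjusted p = 0.0260). Cd14 passed in 7 of 17 alternatives, and DESeq2 gave an adjusted p of 0.00053.

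Ly96 encodes the protein that binds lipopolysaccharide within the Tlr4 complex. It had 2.39, 2.68 and 2.28 CPM in Ctr, 2.59, 3.36, 4.75 and 2.33 CPM in Lpr, and 1.99, 2.93, 2.56 and 2.49 CPM in DNase. Lpr 3 was highest and Lpr 2 next, and the groups overlapped. Ly96 has the shortest implied length of the genes followed, 603 bases. The length trend of Lpr 3 acts to raise short genes relative to long ones, and its part in this value was not tested. The log2 fold change between Lpr and Ctr was 0.42 (95% interval -0.30 to 1.13, adjusted p = 0.519 from edgeR).

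Lbp, the carrier of lipopolysaccharide, is made mainly in liver. It had 9.42, 7.02 and 8.39 CPM in Ctr, 6.13, 18.0, 15.5 and 10.0 CPM in Lpr, and 6.81, 9.97, 9.56 and 9.49 CPM in DNase. Lpr 2 and Lpr 3 were above all other kidneys, and Lpr 1 was the lowest of all 11. The log2 fold change between Lpr and Ctr was 0.59 (95% interval -0.23 to 1.41, adjusted p = 0.408 from edgeR). Hepatocyte markers went the other way: 4 of 4 tested were lower in Lpr (adjusted p under 0.05, edgeR), and the sum of all 6 lay between 63.5 and 69.8 CPM in Ctr, 3.76 and 12.9 CPM in Lpr and 8.86 and 13.1 CPM in DNase. Of these 6, Ttr had the largest mean in Ctr, 41.5 CPM, while Cps1 and Tat were at 1 count or fewer in every Ctr kidney. The part of liver transcripts in the Lbp counts was not tested.

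Myd88, on chromosome 9 (chr9:119335934-119340018), is the adaptor that most Toll-like receptors and the IL-1 receptors share. It had 18.6, 20.4 and 20.0 CPM in Ctr, 31.2, 28.3, 27.1 and 23.9 CPM in Lpr, and 24.0, 24.2, 26.8 and 25.1 CPM in DNase. All MRL/lpr kidneys were above all Ctr kidneys by a small margin. Between Lpr and Ctr the log2 fold change of 0.49 (95% interval 0.13 to 0.86) did not pass the test (adjusted p = 0.0993 from edgeR), and without Lpr 3 it was 0.50 with an adjusted p of 0.0297. It passed in 2 of 17 alternatives, the other being all 3 groups in 1 edgeR fit (adjusted p = 0.0201).

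Tirap, the bridge between Tlr2 or Tlr4 and Myd88, had 10.3, 12.3 and 12.0 CPM in Ctr and 16.4, 13.5, 6.86 and 15.7 CPM in Lpr. In DNase it had 15.9, 16.0, 14.0 and 15.6 CPM. Lpr 3 was below every Ctr kidney and the other Lpr kidneys above them. The log2 fold change between Lpr and Ctr was 0.19 (adjusted p = 0.773 from edgeR), and 0.40 without Lpr 3 (adjusted p = 0.0931).

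**Figure D2:**
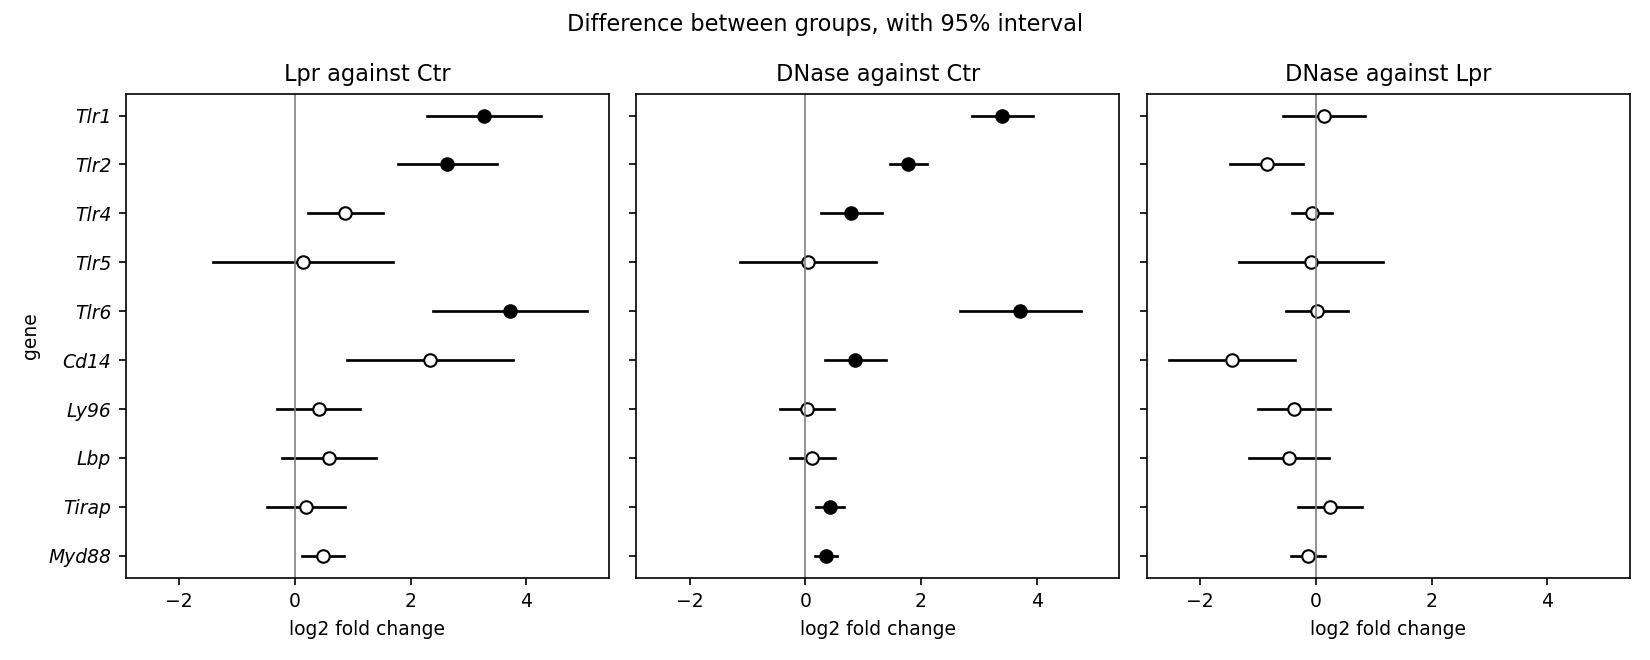
Log2 fold change of each gene in the 3 comparisons, from edgeR, with its 95% interval as a line. Filled points have an adjusted p under 0.05: 3 genes in Lpr against Ctr, 7 in DNase against Ctr and 0 in DNase against Lpr.

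More of the 10 genes passed the test between DNase and Ctr, where the kidneys of the treated group lay closer together. Here 7 genes were higher and 0 lower at an adjusted p under 0.05 (edgeR), where 13.1% of all 16100 genes tested were higher and 8.61% lower. They were Tlr1 with a log2 fold change of 3.41, Tlr6 with 3.72, Tlr2 with 1.78, Cd14 with 0.86, Tlr4 with 0.80, Tirap with 0.42 and Myd88 with 0.35. Only Tlr1 and Tlr6 exceeded a log2 fold change of 2, as 4.56% of all genes did when higher. As given above, Tlr6 could not have been called lower. Every DNase kidney was above every Ctr kidney for these 7 genes, where 18% of all genes showed this. Both comparisons use the same 3 Ctr kidneys, so the values of Lpr and DNase against Ctr are not independent.

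The adjusted p of Tlr4 was 0.0383, that of Cd14 0.0284, that of Tirap 0.0218 and that of Myd88 0.0161 (edgeR). These calls depended on single libraries. Between 4 and 7 of the 10 genes passed with each library left out in turn, with 4 without Ctr 1, without DNase 2 or without DNase 4, and 4 passed when all 3 groups were fitted together. Tlr1, Tlr2 and Tlr6 passed in all of these fits. Ly96 and Lbp, with log2 fold changes of 0.03 and 0.12, did not pass, and neither did Tlr5 with 0.05.

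No gene of the 10 differed between DNase and Lpr at an adjusted p under 0.05 by edgeR, where 0 of all 15832 genes tested were called. DESeq2 also called 0 of the 10, and 19 genes in all. The smallest adjusted p of the 10 genes was 0.82 (edgeR). At an unadjusted p under 0.05, Cd14 and Tlr2 were lower in DNase, where 3.43% of all genes were.

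Cd14 averaged 16.3 ± 2.02 CPM (SD, n = 4) after DNase I, against 45.1 ± 32.8 CPM (SD, n = 4) without it, and its log2 fold change was -1.46 (95% interval -2.55 to -0.37, adjusted p = 0.82 from edgeR). The 2 groups overlapped, since Lpr 4 had 16.2 CPM and the highest DNase kidney 17.8 CPM. The difference was -1.01 without Lpr 2 and -1.25 without Lpr 3. Tlr2 averaged 15.7 ± 0.588 CPM (SD, n = 4) after DNase I, against 28.4 ± 13.1 CPM (SD, n = 4) without it, and its log2 fold change was -0.85 (95% interval -1.48 to -0.22, adjusted p = 0.82 from edgeR). Again the groups overlapped through Lpr 4, and the difference was -0.51 without Lpr 2.

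For the receptor and the adaptor that the study followed, the differences were small. Tlr4 averaged 13.0 ± 1.20 CPM (SD, n = 4) after DNase I, against 13.7 ± 1.92 CPM (SD, n = 4) without it. Its log2 fold change was -0.07 with a 95% interval from -0.42 to 0.28. As a fold of the Lpr level this interval runs from 0.747 to 1.21. Myd88 averaged 25.0 ± 1.25 CPM (SD, n = 4) after DNase I, against 27.6 ± 3.02 CPM (SD, n = 4) without it. Its log2 fold change was -0.13 with a 95% interval from -0.42 to 0.16. As a fold this interval runs from 0.745 to 1.11. The groups overlapped for both genes, and the adjusted p values were 0.923 and 0.856 (edgeR).

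Tlr1 and Tlr6, which had risen most against Ctr, averaged 12.1 ± 2.19 and 4.25 ± 0.630 CPM (SD, n = 4) after DNase I, against 11.1 ± 4.44 and 4.22 ± 1.12 CPM (SD, n = 4) without it. Their log2 fold changes were 0.14 (95% interval -0.56 to 0.84) and 0.02 (95% interval -0.52 to 0.55). For Ly96, Lbp, Tirap and Tlr5 the log2 fold changes were -0.38, -0.47, 0.24 and -0.09, each with an interval that included 0.

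Levels of different genes were compared in FPKM, which divides each count by gene length. In Ctr, Myd88 was the most abundant of the 10 genes with 9.81 ± 0.404 FPKM (SD, n = 3), and no other gene reached its range. Cd14 followed with 5.26 ± 1.94 FPKM (SD, n = 3), and its range overlapped with that of Ly96 at 3.92 ± 0.226 FPKM. Lbp at 3.17 and Tirap at 2.29 FPKM came next, each apart from the genes beside it in this order. The range of Lbp did overlap with the wide range of Cd14. The receptors were lowest, from Tlr2 at 1.35 ± 0.254 FPKM (SD, n = 3), which overlapped with Tlr4 at 0.865 ± 0.331 FPKM, through Tlr1 at 0.341 FPKM to Tlr5 and Tlr6 at 0.0922 and 0.0686 FPKM, which overlapped.

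In Lpr, the order by mean level changed. Cd14 led with 26.8 ± 19.8 FPKM (SD, n = 4), with Myd88 at 14.2 ± 1.61 and Tlr2 at 8.59 ± 4.17 FPKM behind it, and each overlapped with the next. Tlr1 at 3.42 FPKM stood above Tirap at 2.70 and Tlr4 at 1.63 FPKM, again with overlap. Tlr5 was the only gene clearly apart, at 0.106 FPKM. In DNase, Myd88 led with 13.4 ± 0.696 FPKM (SD, n = 4), above Cd14 at 10.2 ± 1.19 and Tlr2 at 4.92 ± 0.177 FPKM without overlap. The middle of the order, from Tlr2 to Tirap, overlapped from each gene to the next.

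Among the 5 surface receptors, the make-up of the transcripts differed between the strains. Tlr4 made up between 24.7% and 36.8% of their summed FPKM in Ctr, between 8.28% and 16.5% in Lpr and between 11.8% and 15.4% in DNase. Tlr2 was the largest share in each kidney, with 44.5% to 53.5% in Ctr, 44.4% to 69.7% in Lpr and 39.7% to 47.4% in DNase. Tlr1 held 9.79% to 20.5% in Ctr, 12.7% to 30.8% in Lpr and 27.2% to 36.1% in DNase. These shares are a description and were not tested. They depend on gene length, and the length trend of Lpr 3 bears on its shares.

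**Figure D3:**
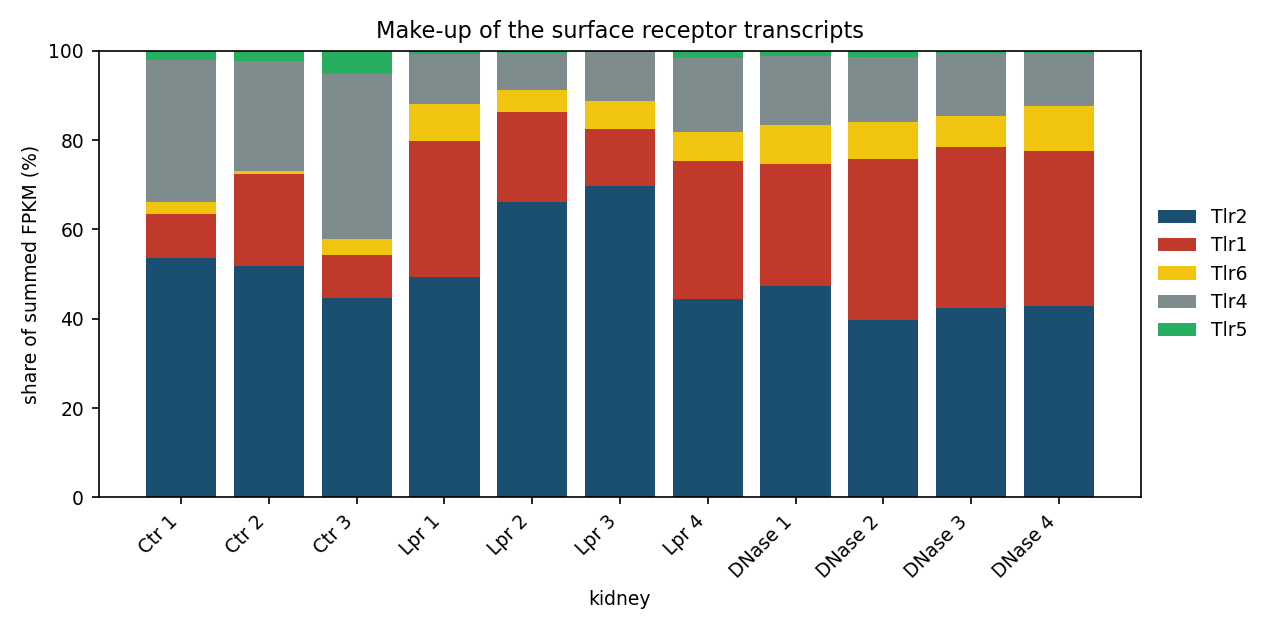
Share of each surface receptor gene in the summed FPKM of Tlr1, Tlr2, Tlr4, Tlr5 and Tlr6, in percent, with 1 bar per kidney. The grey section, Tlr4, spans 24.7% to 36.8% in Ctr and at most 16.5% in any MRL/lpr kidney.

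Ratios of FPKM values within a kidney leave out the other receptors. Tlr2 was between 1.21 and 2.10 times the level of Tlr4 in Ctr, between 2.69 and 8.00 times in Lpr and between 2.72 and 3.62 times in DNase. Cd14 was between 5.54 and 6.82 times the level of Tlr4 in Ctr and between 4.97 and 8.01 times in DNase. In Lpr 1 and Lpr 4 this ratio was 6.78 and 5.43. In Lpr 2 and Lpr 3 it was 27.8 and 29.5, outside the range of all others. Cd14 has an implied length of 1661 bases and Tlr4 of 8411 bases. The length trend of Lpr 3 acts to raise its ratio, by an amount that was not tested.

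**Figure D4:**
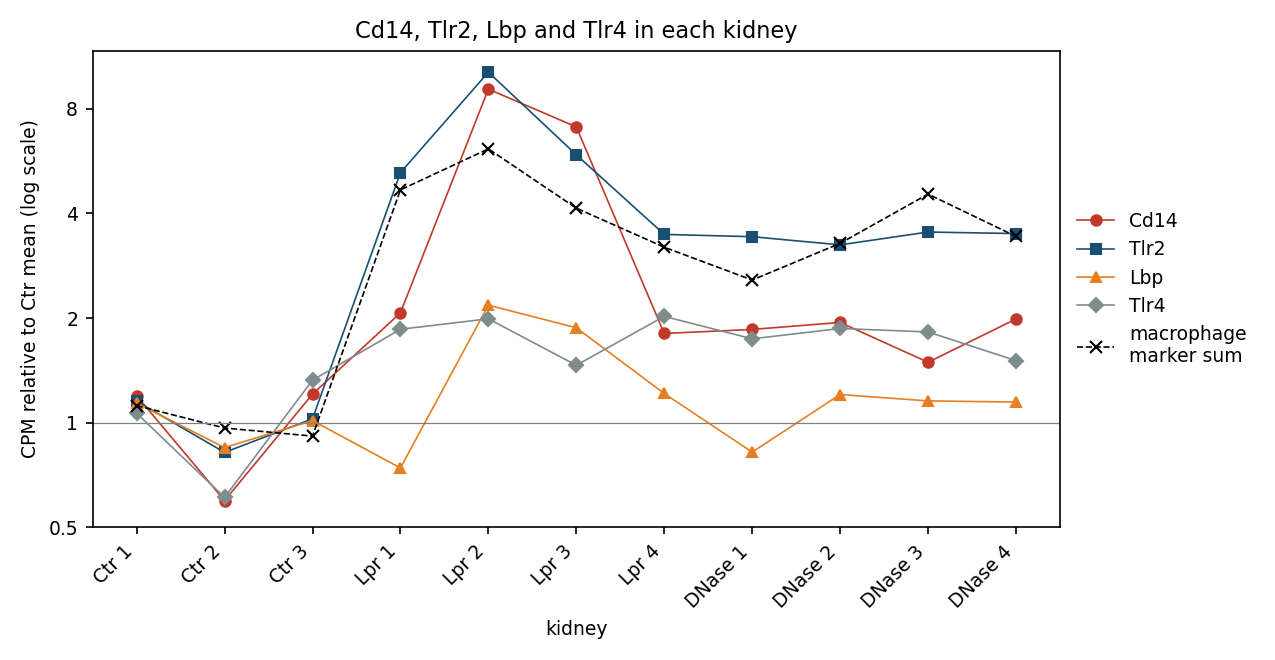
CPM of Cd14, Tlr2, Lbp and Tlr4 and the summed CPM of 9 macrophage markers in each kidney, divided by the Ctr mean, on a log axis. Lines join values of 1 gene for reading only. Cd14 peaks in Lpr 2 and Lpr 3, while Tlr4 lies between 10.9 and 15.1 CPM in all MRL/lpr kidneys.

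Surface Toll-like receptors are strongly expressed in myeloid cells, and markers of these cells moved with the strain. In bulk tissue, more cells of a type and more RNA per cell cannot be told apart. The 9 macrophage markers summed to between 203 and 249 CPM in Ctr, 710 and 1362 CPM in Lpr and 571 and 1010 CPM in DNase, and 8 of 9 were higher in Lpr than in Ctr at an adjusted p under 0.05 (edgeR). The 7 monocyte markers summed to between 52.8 and 90.7 CPM in Ctr, 597 and 1191 CPM in Lpr and 423 and 839 CPM in DNase, with 6 of 7 higher.

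Of 8 neutrophil markers, 5 were tested and 3 were higher in Lpr. Their sum lay between 3.27 and 10.5 CPM in Ctr, 18.1 and 39.6 CPM in Lpr and 16.1 and 28.2 CPM in DNase, and Ly6g, which defines mouse neutrophils, was at 3 counts or fewer in every kidney. The dendritic cell markers summed to between 13.7 and 16.5 CPM in Ctr, 22.8 and 60.2 CPM in Lpr and 36.8 and 64.1 CPM in DNase. Of 7 dendritic markers, 4 were higher and 0 lower in Lpr, or 4 and 1 without Lpr 3. Markers of T cells were higher for 6 of 6 genes tested, and markers of B cells for 1 of 5. None of the 6 endothelial markers passed the test, and 1 was lower without Lpr 3. The part of these cells in the receptor levels was not tested.

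The kidney with the most Tlr2, Lpr 2, also had the highest macrophage sum, 1362 CPM, but Lpr 3, with nearly as much Cd14 as Lpr 2, had a macrophage sum of 920 CPM, below the 1038 CPM of Lpr 1 and the 1010 CPM of DNase 3. The monocyte sum was highest in Lpr 3, with 1191 CPM, and next in Lpr 2, with 1143 CPM, the same 2 kidneys that were highest for Cd14. In Lpr 1 and Lpr 4, it was 908 and 597 CPM. Lyz2 alone, with 807 ± 230 CPM (SD, n = 4) in Lpr, makes up most of the monocyte sum. The sum thus mainly follows 1 gene, and the length trend of Lpr 3 bears on its value there. Between DNase and Lpr, 8 of the 9 macrophage markers and 7 of 7 monocyte markers had lower means in DNase, and 0 passed the test (edgeR), with 1 and 2 at an unadjusted p under 0.05. The median log2 fold changes of these lists were -0.33 and -0.43. Other lists moved further without a call: 6 of 6 fibroblast markers were lower in DNase, 3 of them at an unadjusted p under 0.05 (median -0.57), 5 of 5 adipocyte markers were lower (median -2.21), and 6 of 6 B cell markers were higher, again with 3 at an unadjusted p under 0.05 (median 0.99). Their part in the receptor levels was not tested.

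For 5 of the genes, the genes with the most similar pattern were sought over the 8 MRL/lpr kidneys, by Pearson's r of log2 CPM among 13266 genes. With so many candidates and 8 kidneys, high values of r arise readily, and these are given as a description. Cd14 was most like Rhob with r of 1.00, Cdkn1a with 0.99 and Vmp1 with 0.98. These values rest largely on Lpr 2 and Lpr 3: without both, r was 0.87, 0.74 and 0.47, and over all 8 kidneys Spearman's rho was 0.76, 0.90 and 0.81. Cdkn1a encodes the cell cycle inhibitor p21, and it ranged from 19.8 to 83.8 CPM. Tlr2 was most like Lmna, which encodes the nuclear lamin A, with 0.99, Cldn6 with 0.99 and Creb5 with 0.97.

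Among the genes most like Lbp were Ms4a7 with 0.97 and Sparc, which encodes a matrix protein, with 0.97. Tlr4 was most like Cwc22 with 0.97, Lrrc45 with 0.93 and B3glct with 0.93, and Myd88 most like Dpp3 with 0.96, Dck with 0.96 and Ncaph with 0.95. Without Lpr 3, r was at least 0.879 for each of these genes, the lowest being that of Lrrc45 with Tlr4. Without both Lpr 2 and Lpr 3, r was between 0.859 and 0.987 for the genes named beside Tlr2, Tlr4, Lbp and Myd88.

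The other Toll-like receptors, of the endosome, recognise nucleic acids or, for Tlr11 and Tlr12, profilin. All 7 had higher means in Lpr than in Ctr and 4 passed the test, or 6 without Lpr 3, and the median of the list was 2.45 on the log2 scale. Without Lpr 3, 11.0% of all genes were called higher and 6.79% lower. Tlr8 rose from 0.389 ± 0.214 CPM (SD, n = 3) to 9.34 ± 4.34 CPM (SD, n = 4), a log2 fold change of 4.56. Tlr13, the receptor for bacterial ribosomal RNA, rose by 3.44 and Tlr11 by 3.13. Tlr8 and Tlr11 had as few as 6 and 8 counts in a Ctr kidney. Their Ctr counts alone would not have passed the filter on low counts, so that they could not have been called lower. Tlr7, named after its value was seen, rose by 1.83. Tlr9, the receptor for DNA, had 2.45 with an adjusted p of 0.198 (edgeR). It is also named after its values were seen: Lpr 3 had 4 counts, and the other Lpr kidneys 155 to 317. Without Lpr 3 its log2 fold change was 2.85 with an adjusted p of 0.00222 (edgeR).

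Of 7 genes for proteins that fold or move Toll-like receptors, 3 were higher. Unc93b1, which carries endosomal receptors from the endoplasmic reticulum, rose from 22.1 ± 0.454 CPM (SD, n = 3) to 93.2 ± 28.2 CPM (SD, n = 4). The other two, Slc15a4 and the chaperone gene Hsp90b1, named after their values were seen, rose by 0.78 and 1.13 on the log2 scale. Hsp90b1 folds most of the surface receptors. A further list held RP105, surface receptors of uptake and related proteins. Of its 10 tested genes, 6 were higher, or 7 without Lpr 3, and 0 lower, with a median of 2.95. Among them were the integrin genes Itgam (3.74) and Itgb2 (3.31), the scavenger receptor gene Msr1 (4.63) and Ly86 (2.58), which encodes the partner of RP105 and is a relative of Ly96. Cd180, which encodes RP105 itself and is named after its value was seen, did not pass, with 1.70 (adjusted p = 0.131 from edgeR). Without Lpr 3 it was 2.04 (adjusted p = 0.000871 from edgeR). Itgam is widely used as a myeloid gene.

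Of 21 genes for proteins that carry the signal, a list that holds the Myd88 branch and also the other adaptors Ticam1, Ticam2 and Sarm1, 2 were higher and 1 lower in Lpr, with and without Lpr 3. Over all genes 7.27% were higher and 2.92% lower, and the median log2 fold change of the list was -0.06. Btk and Pik3ap1, with 3.03 each, were the higher genes, and both are expressed mainly in blood cells. Chuk, which encodes an IkB kinase and is named after its value was seen, fell by 0.61 on the log2 scale. Of the others, the kinase genes Irak1, Irak2 and Irak4 and the ligase gene Traf6, named for their place in the pathway, had log2 fold changes between -0.40 and 0.01 without passing the test.

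Of 14 genes for inhibitors of the pathway, 3 were higher, or 6 without Lpr 3, with a median of 0.60. Socs1 rose by 3.03 on the log2 scale, and Irak3 and Tnip1, named after their values were seen, by 1.34 and 0.79. Of 5 receptor genes of the IL-1 family, which also signal through Myd88, 1 was higher, namely Il18rap with 2.04.

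Among 15 tested genes for endogenous ligands, 3 were higher and 2 lower, or 3 and 3 without Lpr 3, with a median of 0.41. The further gene lower without Lpr 3 was Hmgb1, which the study also followed and which is named after its value was seen. Hmgb1 differed by -0.50 on the log2 scale (adjusted p = 0.110 from edgeR), and by -0.62 without Lpr 3 (adjusted p = 0.00475 from edgeR). S100a8 and S100a9, the subunits of calprotectin, rose by 2.89 and 2.30, and both are also on the neutrophil list. Saa3, an acute phase gene, rose by 3.71. S100a8 and Saa3 had as few as 6 and 0 counts in a Ctr kidney, and could not have been called lower. Fgb, for the fibrinogen beta chain, fell from 3.89 ± 0.361 CPM (SD, n = 3) to 0.243 ± 0.249 CPM (SD, n = 4), and Fgg, named after its value was seen, fell by 2.14 on the log2 scale. Fga, another fibrinogen gene and also named after its value was seen, differed by only -0.15 (adjusted p = 0.836 from edgeR). It had 26.4 ± 5.89 CPM (SD, n = 3) in Ctr and 23.7 ± 8.83 CPM (SD, n = 4) in Lpr. All of these fibrinogen genes are made mainly in liver. The 4 tested liver markers were also lower in Lpr, while Cps1 and Tat were near 0 in Ctr, as given beside Lbp. The part of liver transcripts in the fibrinogen counts was not tested.

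Of 23 tested genes that NF-kB is known to induce, 16 were higher and 0 lower, and without Lpr 3 it was 16 of 21. Their median was 3.21 on the log2 scale, or 3.16 with the 4 genes that were at 3 counts or fewer in every Ctr kidney set to their lower bounds. These 4 are among the 16. They entered the test only through their Lpr counts, so that they could not have been called lower. The same holds for Tnf, Ccl3 and Ccl4, also among the 16, which had as few as 6, 1 and 6 counts in a Ctr kidney. Cxcl10 rose from 5.41 ± 1.13 CPM (SD, n = 3) to 53.6 ± 22.7 CPM (SD, n = 4). Fpr1 was at least 32.0-fold higher, Acod1 at least 25.6-fold and Clec4e at least 69.9-fold, computed against a floor of 3 counts in each Ctr kidney, which covers counting error only. Fpr1, Acod1 and Clec4e are expressed in myeloid cells, whose marker sums were higher in Lpr as given above. The part of these cells in the levels of the 23 genes was not tested.

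**Figure D5:**
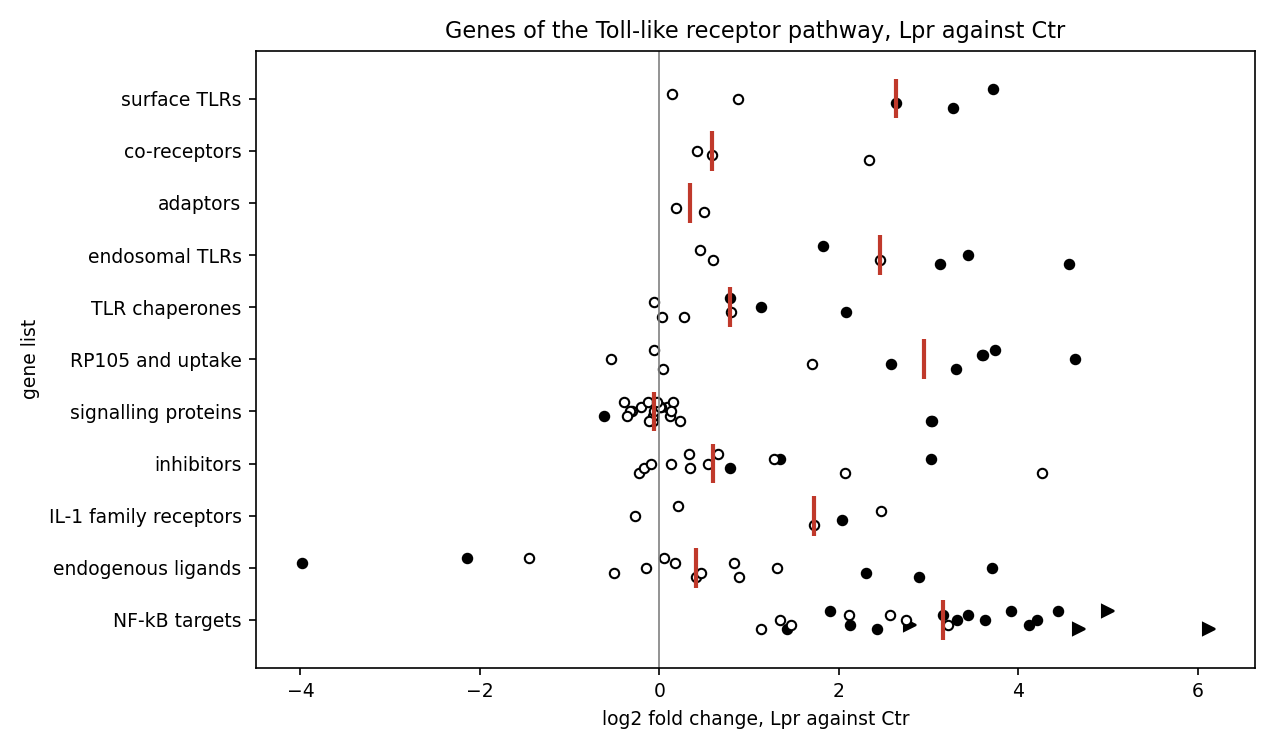
Log2 fold change between Lpr and Ctr of each tested gene by its role in the Toll-like receptor pathway. Filled symbols have an adjusted p under 0.05 (edgeR), triangles are lower bounds for genes at 3 counts or fewer in every Ctr kidney, and red bars are medians: -0.06 for the signalling proteins and 3.16 for the NF-kB targets.

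Between DNase and Lpr, 0 genes of these 8 lists passed the test by edgeR. At an unadjusted p under 0.05, 0 of 7 endosomal receptors, 1 of 7 chaperones (Hsp90b1, -0.48), 2 of 10 genes for RP105 and uptake, 0 of 21 signalling genes, 1 of 14 inhibitors (Atf3, -2.84), 0 of 5 IL-1 family receptors and 2 of 14 ligand genes were lower in DNase, and none was higher. Of 24 NF-kB targets tested here, 5 were lower at an unadjusted p under 0.05 and 16 had lower means, with a median of -0.59 against -0.02 over all genes. Cxcl10 had the smallest p of this list, with 24.9 ± 2.53 CPM (SD, n = 4) in DNase and a difference of -1.10 on the log2 scale (edgeR, adjusted p = 0.82). Of the genes for RP105 and uptake the smallest p was that of Ly86 (-0.63), and of the ligand genes that of Fga (-0.79), both with an adjusted p of at least 0.82 (edgeR). The smallest p among the signalling genes was that of Ikbkg (0.32), among the IL-1 family receptors that of Il18rap (-0.50) and among the endosomal receptors that of Tlr12 (0.25), none of them under 0.05 before adjustment.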

How the data were processed

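RNA of 11 mouse kidneys, 1 library per sample, was measured by RNA-seq. The authors deposited raw counts per gene and FPKM values, from 100 bp paired-end reads. Per the labels and the paper's methods, fastp, HTSeq, DESeq2, R 3.2.0 and mm10 were used. The aligner, the annotation and the strand setting are not given in the sources used here. Of the per-sample columns, 0 were left out.

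Pairs of groups were compared with edgeR 4.0.16 in R 4.3.3 (filterByExpr, TMM, quasi-likelihood test, Benjamini-Hochberg adjustment over all genes tested). A gene whose Ctr counts alone do not pass filterByExpr enters through the MRL/lpr kidneys and cannot be called lower against Ctr. Beside the genes named for this above, it holds for Pglyrp1, F10, Xcr1, Cd3d and Cd79a, which were called higher in Lpr. The study's methods name DESeq2 (1.42.0 here), run as an alternative with limma 3.58.1 on log2(FPKM + 1) and log2(FPKM + 0.1). Standard errors are the fold change divided by the square root of F, and 95% intervals use the t distribution of the fit. CPM values are TMM-scaled over all 11 kidneys, with a prior count of 2 on the log2 scale. Depth was 33469858 to 38460873 counts per kidney, and folds against genes at 3 counts or fewer were computed against 3 counts per library, which covers counting error only. Other alternatives were DESeq2's size factors in edgeR, no filter, all 3 groups in 1 fit, a robust fit, the replicate number as a block, an offset for gene length and each library left out. P-values measure the spread between these samples. The scripts were tested on simulated data.

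The 10 genes and all lists were chosen with earlier results of these data known. All 10 were described. From each pathway list, up to 4 genes with an adjusted p under 0.05 whose log2 fold change was beyond 2 in size between Lpr and Ctr were named by smallest p, or otherwise the 2 with the smallest p, and the gene with the smallest p between DNase and Lpr. Similar genes were the 3 with the highest r over 8 MRL/lpr kidneys at a mean of at least 1 CPM, without predicted genes and antigen receptor segments. For Lbp, 1 of the 3 is not reported here. Positions and windows came from RefSeq on GRCm38.p6. Same-numbered samples did not deviate together (r between -0.277 and 0.159), so that the numbers were not taken as pairs. Plots used matplotlib 3.10.9 in python 3.11.15.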

Additional observations from a re-analysis of the deposited data

Results flagged for a closer look

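In the DNase group, DNase 1 lay apart from the other 3 kidneys for 2 of the 10 genes. Tlr1 was at 8.88 CPM in DNase 1 and between 12.8 and 13.5 CPM in the others, and Lbp was at 6.81 CPM in DNase 1 and between 9.49 and 9.97 CPM in the others. In both genes the gap to the nearest kidney made up more of the group's range than Dixon's 95% critical value for 4 samples allows, at 0.845 and 0.847. Chance alone flags about 1 in 20 groups, and 2 groups of 4 were examined for each of the 10 genes.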

How the results depend on the processing

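Tlr1, Tlr2 and Tlr6 kept an adjusted p under 0.05 and a higher level against Ctr in both comparisons under every alternative run. The number of the 10 genes passing between Lpr and Ctr was 3, and it was 5 with DESeq2, 6 with all 3 groups in 1 fit, 5 with the length offset and 3 to 5 with each library left out (5 without Lpr 3). DESeq2 and the length offset added Cd14 and Tlr4, and the fit of all 3 groups also Myd88. Over all genes, 1639 passed, with 2515 by DESeq2, 2555 with all 3 groups in 1 fit and 852 to 2824 with each library left out (852 without Ctr 1, 911 without Ctr 2, 915 without Ctr 3 and 2824 without Lpr 3). Between DNase and Ctr 7 of the 10 passed, with 4 from all 3 groups in 1 fit and 4 to 7 with each library left out. Over all genes 3493 passed, with 1889 from all 3 groups in 1 fit. With the replicate number as a block, 3 of the 10 and 1869 genes passed, and the samples share only a number. The block also brought Cd14 under 0.05 between Lpr and Ctr, with 4 of the 10 passing, and changed no call between DNase and Lpr. Above a log2 fold change of 2, limma on log2(FPKM + 1) gave 0 of the 10 in both comparisons with Ctr, with and without the filter, where the pseudocount of 1 FPKM lowers the folds of low genes by construction. Between DNase and Lpr, DESeq2 called 19 genes where edgeR called 0. Directions reversed only for values near 0 with no call. Tlr5 between Lpr and Ctr was -0.23 with the block and between -0.29 and 0.87 with libraries left out, and between DNase and Ctr between -0.25 and 0.76. Ly96 between DNase and Ctr was between -0.056 and 0.13. Between DNase and Lpr, Tlr1 was between -0.11 and 0.30, Tlr5 was 0.078 with the block and between -0.42 and 0.36, and Tlr6 was -0.023 with the length offset and between -0.095 and 0.18. The cause of these changes was not tested. Counts of the pathway and marker lists and Tlr9 without Lpr 3, and r without Lpr 2 and Lpr 3, were added after seeing the data. Depth limits Tlr5 and, in Ctr, Tlr6.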
